A study of Mus musculus with 3 samples.

Results

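The insulin-like growth factor (IGF) family was followed across the cell populations of growing mouse bone as 10 genes: the ligands *Igf1* and *Igf2*, the receptors *Igf1r* and *Igf2r*, and the binding proteins *Igfbp2* to *Igfbp7*. They were chosen by symbol from the 55422 genes of the count tables, and all 10 were found. The study was about septoclasts, cells at the growth plate that resorb cartilage, and its droplet single cell RNA-seq comprised 3 libraries from untreated mice aged 3 weeks, labelled C57BL/6 (for the metaphyseal libraries C57BL/6J in the methods). Of these, 2 (metaphyseal replicates 1 and 2) came from the metaphysis of wild-type male long bones after bead depletion of lineage, CD45 and CD117 positive cells, and 1 (*Pdgfra-GFP*) came from male heterozygous *Pdgfra-H2B-GFP* knock-in reporter mice, sorted for GFP from femur and tibia, the dissected region being given as metaphysis in the methods and as metaphysis and epiphysis elsewhere in the study. How many mice entered a library, and whether the replicates were separate mice, is not given in the sources used here. The p-values therefore set differences between populations against variation over these libraries. That spread was estimated in a fit of all populations together, not from each difference alone. The *Pdgfra-GFP* group is 1 library whose cells were selected by a reporter, so effects of its genotype, sort, dissected region and library cannot be told apart.

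IGF1 and IGF2 are secreted growth factors that signal through IGF1R, a receptor tyrosine kinase, and in bone they drive chondrocyte growth and osteoblast activity. IGF2R has no kinase domain and carries IGF2 and lysosomal enzymes to lysosomes. The binding proteins hold IGFs in extracellular fluid and matrix and are cut by proteases such as PAPPA, which frees the ligand, and growth hormone induces *Igf1* through its receptor and STAT5. IGFBP7 is a related protein that binds IGFs weakly.

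The libraries held 25243314, 22082735 and 91747759 UMIs (unique molecular identifiers, each tagging 1 captured RNA molecule) and 2389, 2011 and 11319 cells after filtering, with medians of 6257, 6458 and 5354 UMIs per cell. Between 6.16% and 8% of UMIs lay on near-empty barcodes of 10 to 100 UMIs, which carry free RNA, and 0, 9 and 10 cell barcodes were shared between pairs of libraries. Cells were assigned to populations by marker genes, none of which is a member of the family. The names stand for cells that passed such a gate: septoclasts (SC), metaphyseal and diaphyseal mesenchymal stromal cells (mpMSC, dpMSC), osteoblast lineage cells (OB), chondrocytes (CHO), fibroblasts (FB), mural cells, and arterial, metaphyseal, bone marrow and other endothelial cells (aEC, mpEC, bmEC, other EC). The gates held 8, 9 and 159 SC, 122, 106 and 1800 mpMSC, 731, 676 and 4078 dpMSC, and 0, 0 and 205 FB and this order, metaphyseal replicate 1, metaphyseal replicate 2, then *Pdgfra-GFP*, is kept for all values below. Of the SC, 82 of 176 cells passed with the smallest number of markers allowed, as did 515 of 2028 mpMSC and 84 of 205 FB. The metaphyseal libraries, labelled as stromal cells, also held 463 and 371 mpEC. The 114 mpEC and 93 bmEC of the sorted library carried 9.38 and 2.03 CPM (UMIs of a gene scaled to a common total per library and population) of the *H2B-GFP* reporter, against 184 in its mpMSC, and no population of the metaphyseal libraries had a reporter UMI.

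Of the members, 9 passed the filter on low counts and were tested on UMI counts summed per library and population. *Igf2* did not pass. Adjusted p-values come from edgeR's quasi-likelihood test with the library as a block, with Benjamini-Hochberg adjustment over 13589 genes and a threshold of 0.05, and values after ± are standard errors (SE) of the log2 fold change. Reads were counted at the 3′ end and UMI levels were not set against each other between genes.

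On the genome, *Igfbp2* and *Igfbp5* are neighbours on chromosome 1 (GRCm38, chr1:72824503-72852474 on the plus strand and chr1:72857932-72874884 on the minus strand), and their ends are 5457 bp apart, tail to tail. *Igfbp2* was an endothelial gene in these libraries and *Igfbp5* a stromal one, while *Igfbp4* (chr11:99041244-99054392, plus strand) shared its highest population with *Igfbp5*. The 250 bases before the RefSeq start of these 3 genes (GRCm38.p6) are therefore shown, each read 5′ to 3′ on the gene's own strand, with every match on either strand to TATAAA, the TATA box, and GGGCGG, the GC box, in capitals, and CCAAT searched as well. For *Igfbp2*, which has more than 1 RefSeq start, the first is shown.
Igfbp2, chr1:72824230-72824479, plus strand: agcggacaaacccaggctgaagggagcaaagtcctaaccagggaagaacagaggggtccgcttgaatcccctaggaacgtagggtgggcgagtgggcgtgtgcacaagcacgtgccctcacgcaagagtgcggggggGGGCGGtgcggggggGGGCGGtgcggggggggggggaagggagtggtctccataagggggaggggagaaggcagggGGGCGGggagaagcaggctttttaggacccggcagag
Igfbp4, chr11:99040994-99041243, plus strand: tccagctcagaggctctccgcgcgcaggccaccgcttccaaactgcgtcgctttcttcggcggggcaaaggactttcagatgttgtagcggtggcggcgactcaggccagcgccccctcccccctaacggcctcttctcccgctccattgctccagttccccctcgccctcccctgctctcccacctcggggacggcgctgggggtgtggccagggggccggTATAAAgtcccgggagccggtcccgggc
Igfbp5, chr1:72874866-72875115, minus strand: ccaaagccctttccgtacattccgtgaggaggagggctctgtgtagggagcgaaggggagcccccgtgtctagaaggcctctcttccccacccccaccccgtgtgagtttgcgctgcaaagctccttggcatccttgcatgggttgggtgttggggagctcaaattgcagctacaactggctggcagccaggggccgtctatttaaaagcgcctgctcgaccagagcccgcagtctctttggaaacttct

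The *Igfbp2* window held 3 GC boxes and no TATAAA, the *Igfbp4* window 1 TATAAA and no GC box, and the *Igfbp5* window none of the 3 motifs. Of 32851 mouse promoter windows of 250 bases, 12.4% held TATAAA, 32.7% GGGCGG and 33.8% CCAAT. A match describes the letters only.

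Among the ligands, *Igf1* was the one detected at a level that could be compared, and it was high in stromal and mural cells and low in osteoblast lineage and arterial endothelial cells. In dpMSC it reached 621, 593 and 899 CPM. In mpMSC it stood at 293, 339.5 and 752 CPM, so the *Pdgfra-GFP* library was the highest of the 3 in both, and the ranges of both populations overlapped. Mural cells, which wrap vessels, held 591, 796 and 697 CPM, from 17, 18 and 67 cells. FB held 271 CPM in the sorted library.

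*Igf1* in OB was 2.15, 3.75 and 10.9 CPM, far below mpMSC in all 3 libraries without overlap. These values lay under 10% of the *Igf1* level of the near-empty barcodes, which is 15.5, 16.7 and 24.8 CPM, so they are no larger than a 10% share of free RNA would give. CHO held 9.08, 22.4 and 42.5 CPM, below that level in metaphyseal replicate 1 and above it in the other libraries. The endothelial populations other than aEC stood between 46.4 and 91.2 CPM. In aEC *Igf1* was 4.79, 0 and 29.6 CPM. Erythroid cells of the sorted library, used below as a reference, held 63.8 CPM (exact interval 44.5 to 88.8), above its OB, CHO and aEC. Their level is therefore not a free RNA level common to the populations of that library. The erythroid interval overlaps those of mpEC, bmEC and other EC in the same library. In the metaphyseal libraries the intervals of mpEC (44.4 to 60.8 and 49.2 to 68.4 CPM) lay above those of aEC, which ended at 14.0 and 8.49 CPM.

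With every cell cut down at random to 2000 UMIs (thinned), which removes differences in depth, 60.3%, 62.6% and 74.8% of dpMSC had an *Igf1* UMI, against 1.53%, 0% and 2.16% of OB. Unthinned, the shares were 86.6%, 88.5% and 87.9% in dpMSC and 4.59%, 1.80% and 10.1% in OB. In erythroid cells, which should lack the gene, 10.0% of 60 thinned cells of the *Pdgfra-GFP* library had a UMI (unthinned 21.7%), and their median of 8124.5 UMIs compares with 3612 in dpMSC and 11726.5 in OB of that library. The OB share is therefore below that of the erythroid cells, while that of dpMSC is above it. Thinning left out 269 of 4078 dpMSC, no OB and no erythroid cell of the sorted library.

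*Igf2*, the fetal growth factor, was close to the floor everywhere. CHO held 0, 2 and 12 *Igf2* UMIs (0, 2.64 and 0.787 CPM) and dpMSC 1, 1 and 12 UMIs (0.231, 0.246 and 0.746 CPM). SC, FB, mural cells and all endothelial populations had 0 UMIs in every library, which in the 159 sorted SC allows up to 2.25 CPM at 3 counts. *Igf2* was not tested. In the *Pdgfra-GFP* library the exact intervals of dpMSC (0.385 to 1.30 CPM) and CHO (0.407 to 1.38 CPM) lay above that of OB (0.00134 to 0.294 CPM, 1 UMI), and the near-empty barcodes of that library held 1.06 CPM.

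The receptors varied less between populations than *Igf1* did. By its mean among stromal, mural and endothelial populations, *Igf1r* was highest in bmEC at 65.5, 79.1 and 93.2 CPM. In mpEC it was 16.1, 18.2 and 18.8 CPM and in aEC 17.6, 13.8 and 21.1 CPM, so every bmEC value lay above every value of mpEC and aEC. Other EC stood at 39.9, 53.85 and 52.99 CPM, also below bmEC. The stromal levels were between those of bmEC and mpEC, at 62.9, 58.5 and 46.7 CPM in dpMSC and 50.2, 55.1 and 45.3 CPM in mpMSC. OB were lower, with 23.6, 26.2 and 19.6 CPM. CHO held 52.9, 67.2 and 34.9 CPM. In metaphyseal replicate 1 mural cells (76.2 CPM, 8 UMIs) and SC (72.3 CPM, 6 UMIs) stood above bmEC, from sums of under 20 cells that the means leave out. In the other libraries mural cells and SC stood below bmEC.

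*Igf2r* ranged over libraries from 27.1 to 80.4 CPM in mpMSC, dpMSC, OB and CHO, with means of 58.7 ± 22.9 in CHO, 54.7 ± 12.9 in dpMSC, 40.8 ± 10.9 in mpMSC and 36.6 ± 8.61 in OB (SD, n = 3). Neighbours in the order of all 11 means overlapped, except FB and SC, which were 1 value each. In 7 of the 8 populations that had at least 20 cells in every library, *Igf2r* was lower in the *Pdgfra-GFP* library than in both metaphyseal ones. For *Igf1r* this held in 4 of 8.

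**Figure D1:**
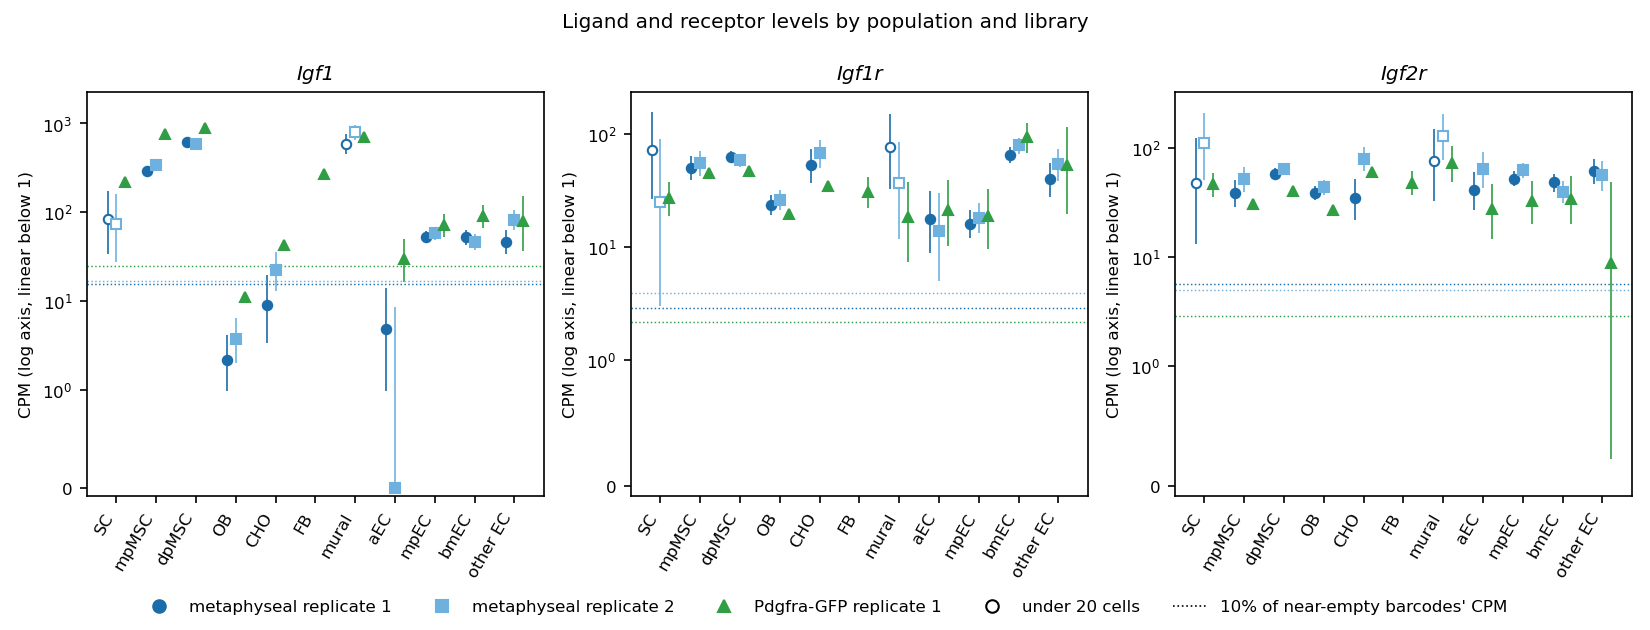
Levels of *Igf1*, *Igf1r* and *Igf2r* (CPM, y axis logarithmic and linear below 1) in each population (x axis), 1 point per library with exact Poisson 95% intervals, open where a sum has under 20 cells, and dotted lines at 10% of the near-empty barcodes' level. *Igf1* falls from at least 293 CPM in dpMSC, mpMSC and mural cells to at most 10.9 in OB, and *Igf1r* stands at 65.5 to 93.2 in bmEC against 16.1 to 18.8 in mpEC.

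The binding proteins differed in their leading populations, although some shared one. *Igfbp2*, which binds matrix as well as IGFs, was endothelial. bmEC held 459.5, 402 and 217 CPM, mpEC 253, 202 and 191 CPM and other EC 254, 283 and 415 CPM. aEC were lower, with 49.5, 4.60 and 31.7 CPM, and did not overlap the other 3. In the stroma *Igfbp2* stayed between 0 and 15.8 CPM, highest in dpMSC, and SC had no *Igfbp2* UMI in any library. Of thinned bmEC 51.5%, 44.2% and 34.1% had a UMI (unthinned 74.1%, 73.6% and 51.6%), against 0 of 60 erythroid cells in the sorted library, which allows a share of up to 5.96% by the exact interval.

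*Igfbp3*, the main carrier of IGF1 in serum, had separate peaks in arterial endothelium and in dpMSC. aEC held 1408, 1569 and 2074 CPM, above all other populations in every library. dpMSC followed with 755, 729 and 916 CPM, without overlap with mpMSC at 38.8, 30.6 and 61.3 CPM. The endothelial levels then dropped to 199, 172 and 674 CPM in mpEC and 30.5, 30.1 and 120 CPM in bmEC, the *Pdgfra-GFP* library being the highest each time. SC held 96.4, 86.8 and 59.4 CPM, from 8, 7 and 79 UMIs, and OB and CHO at most 13.5 CPM.

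*Igfbp4* and *Igfbp5* had their highest mean in the same population, dpMSC. *Igfbp4*, an inhibitor of IGF action and the main PAPPA substrate, was 8353, 8146 and 7827 CPM in dpMSC. In mpMSC it was 2017, 2228 and 2827 CPM and in bmEC 2205, 2131 and 2850 CPM, which overlap. SC lay lower at 759, 670 and 996 CPM. OB (124, 124 and 116 CPM) and CHO (27.2, 81.7 and 214 CPM) stood mostly under 10% of the near-empty level, which is 263, 251 and 194 CPM. The exception was CHO of the sorted library, whose 214 CPM lay below the 593 CPM of its erythroid cells.

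*Igfbp5*, which binds bone mineral and matrix, was 5950, 5843 and 4412 CPM in dpMSC and 649.7, 732 and 699 CPM in mpMSC, without overlap. SC held 12.1, 24.8 and 107 CPM, from 1, 2 and 143 UMIs, and the first 2 of these lie under 10% of the near-empty level (164, 156 and 83.7 CPM). The 107 CPM of the sorted library lie below the 211.5 CPM of its erythroid cells and above the 56.1 CPM of its OB. Nearly all thinned dpMSC had an *Igfbp5* UMI (98.9%, 98.4% and 96.0%), as against 43.4%, 44.3% and 48.6% of mpMSC and 15% of erythroid cells in the sorted library. Across the 11 population means, log2(CPM + 1) of *Igfbp4* and *Igfbp5* had a Pearson r of 0.764, the highest of the 36 pairs of members. The means share libraries, and SC, FB and mural cells are represented by the sorted library alone.

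*Igfbp6*, which prefers IGF2 to IGF1, was a fibroblast gene. The 205 FB of the *Pdgfra-GFP* library held 4323 CPM (5896 UMIs), while no other stromal, chondrocyte, mural or endothelial population exceeded 50.8 CPM in any library. Of thinned FB 87.1% had a UMI (unthinned 93.7%), against 1.89% of mpMSC and 3.33% of erythroid cells of that library. In the metaphyseal libraries, which held no FB, *Igfbp6* reached at most 14.5 CPM.

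*Igfbp7* was highest in mural cells and aEC. Mural cells held 7412, 6674 and 12320 CPM and aEC 5259, 5877 and 10400 CPM. dpMSC had 3632, 3537 and 6193 CPM, SC 2084, 1725 and 4401 CPM, and mpMSC less, at 589.6, 798 and 1354 CPM. FB of the sorted library held 6310 CPM. In every library mpEC (2099, 1768 and 5443 CPM), bmEC (1592, 1588 and 3870 CPM) and other EC (1553, 1222 and 4187 CPM) lay below dpMSC. OB were lowest with 54.5, 51.3 and 131 CPM, under 10% of the near-empty level (156, 143 and 271 CPM). The *Pdgfra-GFP* library had more *Igfbp7* than both metaphyseal libraries in 8 of 8 populations, by 1.73 to 4.18 times their mean. *Igfbp3* was also higher there in 8 of 8, by 1.23 to 7.89 times. The near-empty level of *Igfbp7* was higher in that library as well, and its part in this difference was not tested.

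**Figure D2:**
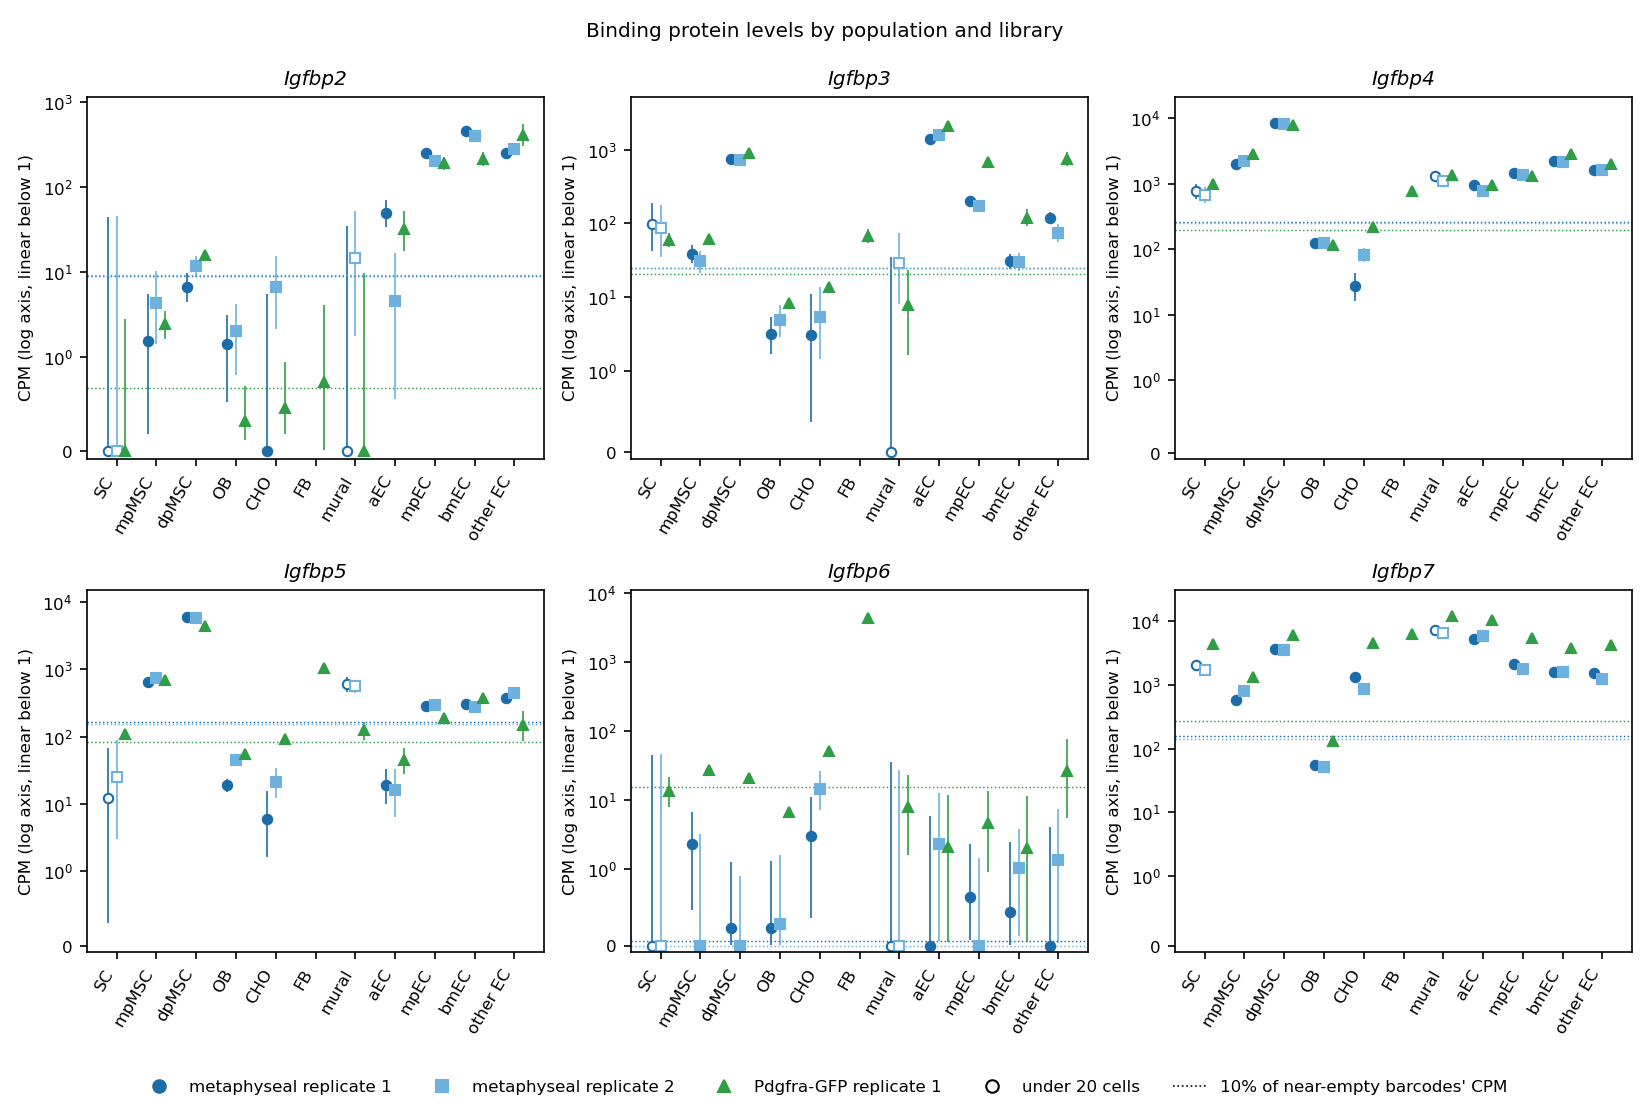
Levels of *Igfbp2* to *Igfbp7* (CPM, y axis logarithmic and linear below 1) by population (x axis), 1 point per library with exact Poisson 95% intervals, open where a sum has under 20 cells, and dotted lines at 10% of the near-empty barcodes' level. The leading populations, some of them shared, are endothelium for *Igfbp2*, aEC and dpMSC for *Igfbp3*, dpMSC for *Igfbp4* and *Igfbp5*, FB for *Igfbp6*, and mural cells and aEC for *Igfbp7*.

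Marrow and metaphyseal stroma were compared first, as dpMSC minus mpMSC. Of the 9 members tested, 5 were higher in dpMSC and none lower, with a median log2 fold change of 1.68, against 0.03 over all genes. Of all genes 32.5% passed the threshold in either direction and 15.6% were higher. The 5 were all binding proteins: *Igfbp3* (4.24 ± 0.45, adjusted p = 2.58e-06), *Igfbp5* (2.86 ± 0.61, adjusted p = 0.00183), *Igfbp7* (2.19 ± 0.27, adjusted p = 1.55e-05), *Igfbp2* (2.13 ± 0.65, adjusted p = 0.0200) and *Igfbp4* (1.68 ± 0.39, adjusted p = 0.00330). Each was higher in 3 of 3 libraries without overlap. *Igf1* did not pass at 0.61 ± 0.31 (adjusted p = 0.157), although it was higher in 3 of 3 libraries, and without the *Pdgfra-GFP* library it did, at 0.77 (adjusted p = 5.69e-05). It also passed with no count filter (0.66, adjusted p = 0.000671) and with only the populations compared in the fit (0.56, adjusted p = 0.00425). *Igf1r* (0.04 ± 0.15, adjusted p = 0.870) and *Igf2r* (0.32 ± 0.21, adjusted p = 0.251) did not pass, nor did *Igfbp6* (-0.67 ± 0.51, adjusted p = 0.358). In thinned cells *Igfbp6* passed as lower in dpMSC (-1.04, adjusted p = 0.011).

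Some of these calls were lost when a library was left out. Without metaphyseal replicate 2 the adjusted p was 0.115 for *Igfbp4* and 0.0771 for *Igfbp5*, at log2 fold changes of 1.72 and 2.91. *Igfbp2* was lost without metaphyseal replicate 1 (adjusted p = 0.0759) and without the *Pdgfra-GFP* library (0.375), and with clusters in place of gates (0.0894). Its dpMSC level in the metaphyseal libraries, 6.70 and 11.8 CPM, was near 10% of the near-empty level (8.87 and 9.29 CPM). Without the replicate block *Igfbp7* had an adjusted p of 0.0516.

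OB minus mpMSC gave the opposite picture for the binding proteins. Of 9 members 5 were lower and 1 higher, with a median of -2.21 against -0.02 over all genes, while 41.1% of all genes passed, 20.9% higher and 20.2% lower. *Igf1* fell by 5.40 ± 0.40 (adjusted p = 3.24e-08), *Igfbp4* by 3.50 ± 0.42 (adjusted p = 6.99e-06), *Igfbp5* by 3.35 ± 0.63 (adjusted p = 0.000539), *Igfbp7* by 2.84 ± 0.28 (adjusted p = 1.10e-06) and *Igfbp3* by 2.21 ± 0.49 (adjusted p = 0.00204), each lower in 3 of 3 libraries. The OB levels of all 5 lay at or under 10% of the near-empty level. They were thus no larger than a 10% share of free RNA would give. That share was assumed, and the actual share in OB was not tested. *Igfbp3* was lost without metaphyseal replicate 1 (adjusted p = 0.0824) and without the block (0.0745).

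The scaling moved the OB values. TMM set the median of all genes to -0.02 and scaling by library size to -0.83. *Igf2r* was higher by 0.65 ± 0.21 under TMM (adjusted p = 0.0146) and flipped to -0.15 under library size, and it was also lost without metaphyseal replicate 2 (adjusted p = 0.0742) and without the block (0.169). *Igf1r* was at -0.32 ± 0.16 (adjusted p = 0.108) under TMM and passed at -1.13 under library size and at -0.45 without the *Pdgfra-GFP* library (adjusted p = 0.0309). With only the populations compared in the fit it passed as well, at -0.36 (adjusted p = 0.0319). The falls of *Igf1*, *Igfbp4*, *Igfbp5*, *Igfbp7* and *Igfbp3* kept their sign under every scaling. *Igfbp2* (-0.85 ± 0.97, adjusted p = 0.530) and *Igfbp6* (-1.01 ± 0.55, adjusted p = 0.166) did not pass. *Igfbp6* passed as lower with no count filter (-1.01, adjusted p = 0.00354) and without metaphyseal replicate 2 (-1.12, adjusted p = 0.029). It also passed under library size scaling (-2.01, adjusted p = 0.00679).

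In CHO, 4 of 9 members were lower than in mpMSC and 3 higher, while 38.7% of all genes passed, 20.7% higher and 17.9% lower. *Igfbp4* fell by 4.05 ± 0.43 (adjusted p = 2.25e-06), *Igf1* by 3.72 ± 0.39 (adjusted p = 1.43e-06), *Igfbp5* by 3.52 ± 0.66 (adjusted p = 0.000500) and *Igfbp3* by 2.09 ± 0.55 (adjusted p = 0.00686), in 3 of 3 libraries. *Igfbp7* was higher in CHO, with 1319, 875 and 4588 CPM, by 1.43 ± 0.27 (adjusted p = 0.000544), and *Igf2r* by 1.09 ± 0.22 (adjusted p = 0.000225). *Igfbp6* was higher by 1.70 ± 0.54 (adjusted p = 0.0220) at 3.02, 14.5 and 50.8 CPM. For *Igfbp7*, *Igf2r* and *Igfbp6* the CPM ranges of CHO and mpMSC overlapped. The unscaled CPM of *Igf2r* were higher in CHO in 2 of 3 libraries.

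The calls on *Igfbp3*, *Igfbp6* and *Igfbp7* in CHO were lost without the block, with adjusted p of 0.141, 0.475 and 0.0936. *Igfbp3* (adjusted p = 0.113) and *Igfbp6* (0.144) were also lost without metaphyseal replicate 1, and *Igfbp5* without metaphyseal replicate 2 (0.0511). These libraries held 44 and 38 CHO. With only the populations compared in the fit, *Igfbp5* (0.0932), *Igfbp6* (0.0609) and *Igfbp7* (0.124) were lost, and with clusters in place of gates *Igfbp3* was (0.0719). *Igfbp6* was lost as well under library size scaling (1.23, adjusted p = 0.0877), under DESeq2's test (2.47, adjusted p = 0.0621) and with a gate of 1 more marker (1.5, adjusted p = 0.0525), so that 6 of 15 alternatives ended its call. *Igf1r* (0.29 ± 0.17, adjusted p = 0.196) and *Igfbp2* (-1.20 ± 1.10, adjusted p = 0.439) did not pass.

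SC could not be tested in the planned fit, since the metaphyseal libraries held 8 and 9. In the *Pdgfra-GFP* library, which gives no replicate check, SC held 0.294 times the mpMSC level of *Igf1* (95% counting interval 0.261 to 0.330), 0.352 times that of *Igfbp4* (0.333 to 0.372), 0.154 times that of *Igfbp5* (0.129 to 0.181) and 3.25 times that of *Igfbp7* (3.15 to 3.35). *Igf1r* was at 0.597 times (0.413 to 0.837) and *Igf2r* at 1.5 times (1.13 to 1.97). For *Igfbp3* the ratio was 0.968 (0.758 to 1.22) there, but 2.48 (1.02 to 5.27) and 2.84 (1.06 to 6.48) in metaphyseal replicates 1 and 2, from 8 and 7 UMIs in SC. The *Igf1r* ratio in metaphyseal replicates 1 and 2 was 1.44 (0.51 to 3.3) and 0.45 (0.0533 to 1.69), from 6 and 2 UMIs in SC. These intervals rest on UMIs of single libraries and cover counting error only.

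A fit with sums of at least 5 cells, chosen after the cell numbers were seen, used all 3 libraries. It called 3 members lower and 1 higher of 9, while 6.76% of all 14363 genes passed, 2.96% higher and 3.8% lower: *Igf1* at -1.86 ± 0.40 (adjusted p = 0.00642), *Igfbp4* at -1.78 ± 0.36 (adjusted p = 0.00430), *Igfbp5* at -3.39 ± 0.79 (adjusted p = 0.0121) and *Igfbp7* at 1.25 ± 0.24 (adjusted p = 0.00165), each in the same direction in 3 of 3 libraries. Each call was lost without at least 1 metaphyseal library: *Igf1* without replicate 1 or 2 (adjusted p = 0.101 and 0.0847), *Igfbp5* likewise (0.144 and 0.286), *Igfbp4* without replicate 2 (0.284) and *Igfbp7* without replicate 1 (0.124). Without the block *Igf1* (adjusted p = 0.228) and *Igfbp7* (0.458) were lost. *Igf1r*, *Igf2r*, *Igfbp2*, *Igfbp3* and *Igfbp6* did not pass.

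FB were found in the *Pdgfra-GFP* library alone and gave no test. There *Igfbp6* was 158 times the mpMSC level (141 to 177), *Igfbp7* 4.66 times (4.54 to 4.78) and *Igfbp5* 1.5 times (1.42 to 1.59), while *Igf1* was 0.361 times (0.324 to 0.401) and *Igfbp4* 0.275 times (0.259 to 0.293).

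Endothelium was compared with the mean of mpMSC, dpMSC and OB. Of 9 members 3 were higher and 4 lower, with a median of -0.20 against -0.07 over all genes, and 60.9% of all genes passed, 27.7% higher and 33.3% lower. *Igfbp2* was higher by 5.39 ± 0.39 (adjusted p = 6.40e-09), *Igfbp3* by 1.90 ± 0.24 (adjusted p = 5.43e-06) and *Igfbp7* by 1.87 ± 0.15 (adjusted p = 2.74e-08). In the fit each side is a mean of log levels, and OB count as much as dpMSC. For *Igfbp3* and *Igfbp7* only aEC (means of 1684 and 7178 CPM) stood above dpMSC (800 and 4454 CPM). The means were lower in mpEC (348 and 3104 CPM), bmEC (60.1 and 2350 CPM) and other EC (317 and 2321 CPM). *Igfbp5* (-2.0 ± 0.34, adjusted p = 9.24e-05), *Igf1* (-1.86 ± 0.23, adjusted p = 2.63e-06) and *Igf1r* (-0.65 ± 0.11, adjusted p = 7.75e-06) were lower. These 6 calls held without each library in turn. For *Igf1r* the unscaled CPM were lower in 2 of 3 libraries, and the endothelial populations differed. Its mean was 79.3 CPM in bmEC, above dpMSC (56.0 CPM), mpMSC (50.2 CPM) and OB (23.2 CPM). Other EC held 48.9 CPM, while mpEC (17.7 CPM) and aEC (17.5 CPM) lay below mpMSC, dpMSC and OB. *Igfbp6* was lower at -1.48 ± 0.61 (adjusted p = 0.0477) from at most 26.5 CPM in endothelium and lower in 2 of 3 libraries. Its call was lost in 7 of 14 alternatives. Among these were leaving out metaphyseal replicate 1 (adjusted p = 0.173) and DESeq2's test, which gave the highest adjusted p, 0.299. *Igfbp4* (-0.15 ± 0.21) did not pass, and its sign turned under library size scaling (0.18), as did that of *Igf2r* (0.10). Both passed as lower with no count filter (-0.24 and -0.28) and with only the populations compared in the fit (-0.15 and -0.23).

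Within endothelium, bmEC minus mpEC called 2 of 9 members, where 18.0% of all genes passed, 9.38% higher and 8.62% lower. Endothelial cells had been expected in the 2 metaphyseal libraries only, but the fit also used 114 mpEC and 93 bmEC of the sorted library. *Igf1r* was higher in bmEC by 2.17 ± 0.20 (adjusted p = 8.17e-10), in 3 of 3 libraries without overlap, and this call held under every alternative run. *Igfbp3* was lower (-2.55 ± 0.43, adjusted p = 0.000576), also in 3 of 3, and was lost without metaphyseal replicate 1 (adjusted p = 0.0803) and without the block (0.0661). *Igfbp2* (0.78 ± 0.37, adjusted p = 0.174) and *Igfbp4* (0.80 ± 0.38, adjusted p = 0.183) were higher in 3 of 3 libraries and did not pass, but *Igfbp2* did without the *Pdgfra-GFP* library at 0.93 (adjusted p = 0.0279). Both passed with no count filter (adjusted p = 3.74e-05 and 7.12e-07) and with only the populations compared in the fit (4.68e-05 and 2.54e-05). The other 5 members did not pass, with adjusted p from 0.473 to 1.0, though *Igfbp7* did with only the populations compared (-0.32, adjusted p = 0.0225). Of thinned bmEC 13.2%, 13.5% and 18.2% had an *Igf1r* UMI, against 3.24%, 4.04% and 2.7% of mpEC and 1.67% of the erythroid cells in the sorted library; unthinned, the shares were 30.3%, 31.0% and 31.2% against 9.29%, 10.2% and 9.65%.

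**Figure D3:**
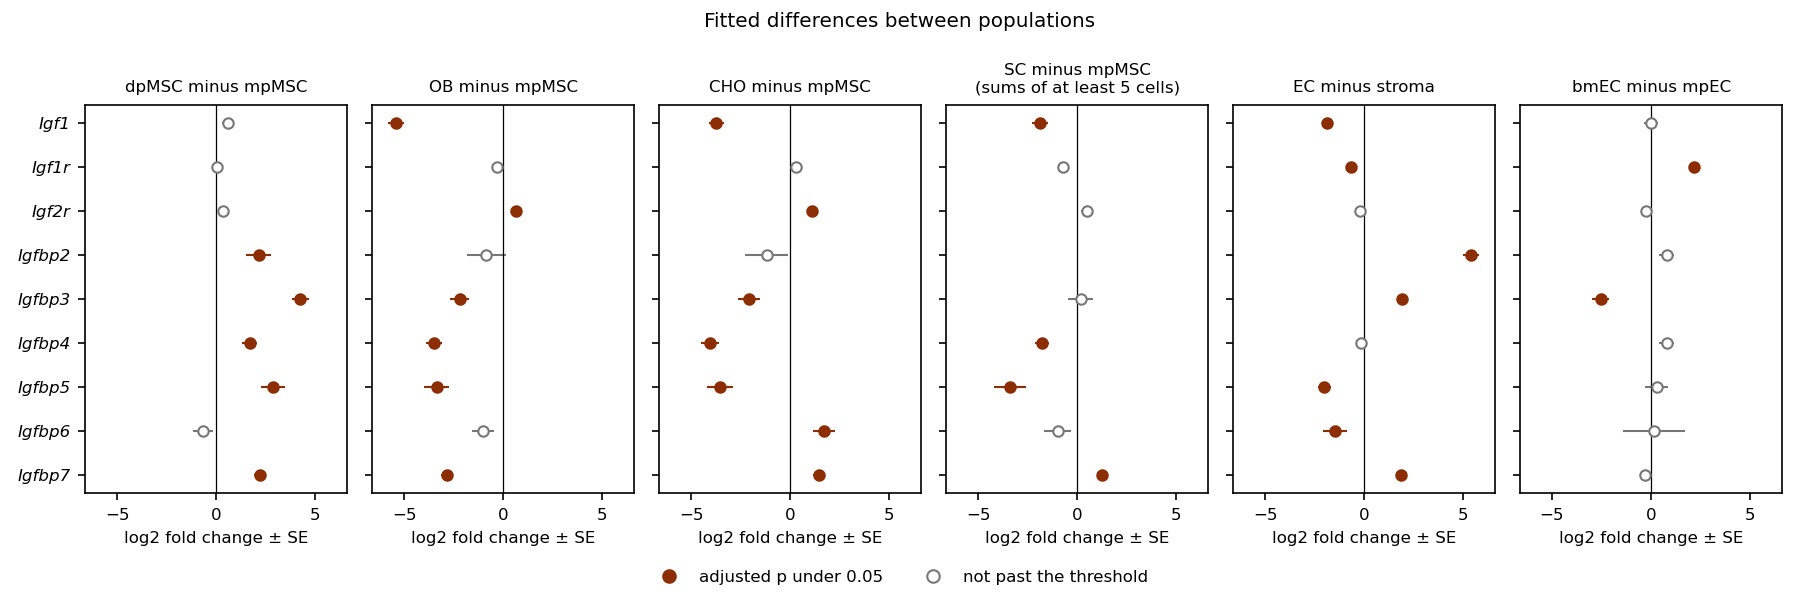
Log2 fold change (x axis) with SE of the 9 tested members (y axis) in 6 comparisons, filled where the adjusted p was under 0.05. *Igfbp2* has no point in SC minus mpMSC because SC had no UMI of it. *Igfbp4* and *Igfbp5* lie right of 0 in dpMSC and left of 0 in OB, CHO and SC, and *Igf1r* stands out in bmEC minus mpEC at 2.17.

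**Figure D4:**
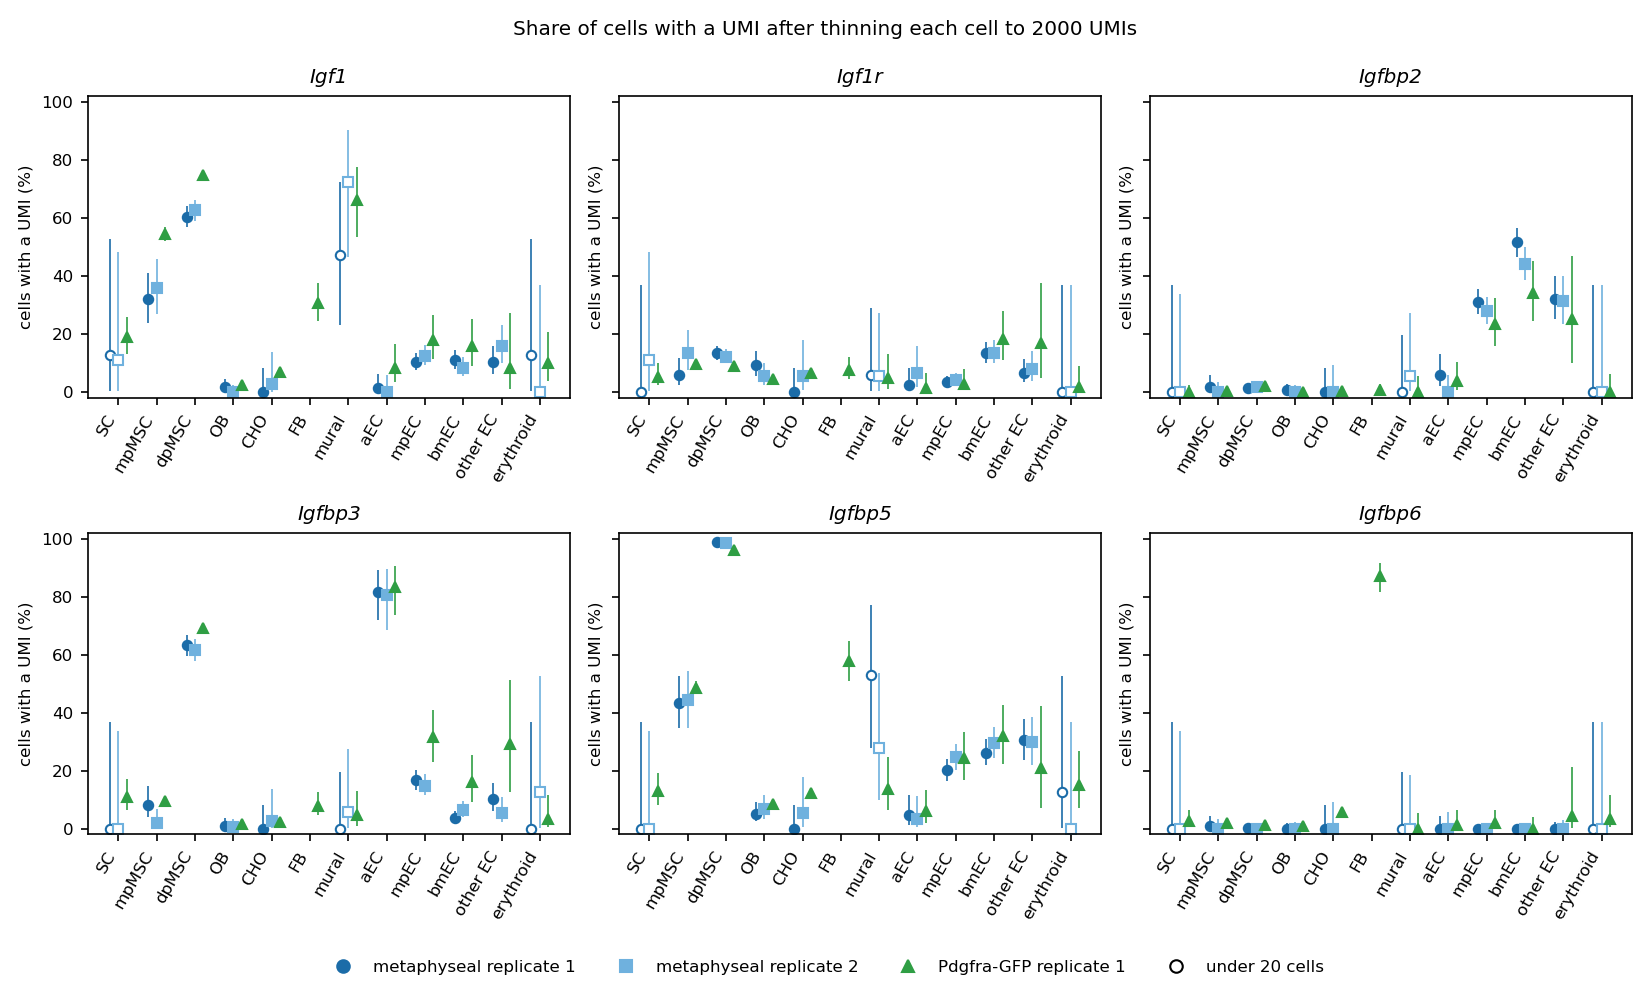
Share of cells with a UMI (%, y axis) after thinning each cell to 2000 UMIs, for 6 members by population (x axis), 1 point per library with exact binomial 95% intervals, open under 20 cells. Erythroid cells are shown as a reference, for instance 10% for *Igf1* and 15% for *Igfbp5* in the *Pdgfra-GFP* library, against 74.8% and 96.0% of dpMSC.

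The rest of the pathway was read from a list of 34 genes, of which 31 were tested. *Igfbp1*, *Igfals* and *Igfbpl1* were under the filter, so the serum carrier subunit *Igfals* and the liver gene *Igfbp1* were not compared. *Igfbp1* had 0 CPM in each stromal and endothelial population mean. In dpMSC minus mpMSC 14 of the 31 were higher, 2 lower and 15 not called (median 0.59), where 15.6% of all genes were higher and 16.9% lower (median 0.03). Of the 6 growth hormone axis genes 5 were higher: among them *Ghr*, the growth hormone receptor, at a mean of 355 against 69.9 CPM (2.23 ± 0.18, adjusted p = 1.07e-10), and the signal transducers *Stat5a* (2.01 ± 0.20, adjusted p = 3.03e-09) and *Stat5b* (1.49 ± 0.22, adjusted p = 2.00e-06). The protease gene *Pappa* was higher too, at 1017 against 296 CPM (1.66 ± 0.59, adjusted p = 0.0440).

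OB had 7 of 31 list genes higher and 10 lower than mpMSC, beside 20.9% and 20.2% of all genes. The higher calls rest on the TMM scaling. Of these 7 only *Foxo3* (24.0 against 20.9 CPM) was higher in 3 of 3 libraries by unscaled CPM. Over all genes 50.8% of calls were higher under TMM and 8.75% under library size scaling. *Pappa* fell by 4.47 ± 0.72 (adjusted p = 0.000142) to 8.0 CPM, and *Ghr* by 1.11 ± 0.19 (adjusted p = 2.84e-05). *Plagl1*, an imprinted transcription factor gene, was lower too (-2.24 ± 0.23, adjusted p = 4.28e-08). In CHO 14 were higher and 5 lower, beside 20.7% and 17.9% of all genes. Of the 4 genes of binding-protein proteases and their inhibitors, 2 were higher and 2 lower. The protease gene *Pappa2* was at 36.5 against 0.308 CPM (6.48 ± 0.45, adjusted p = 9.40e-11) and *Stc2*, which encodes an inhibitor of these proteases, at 45.9 against 6.21 CPM (4.43 ± 0.72, adjusted p = 0.000977). *Pappa* was lower, at 37.4 against 296 CPM (-2.70 ± 0.71, adjusted p = 0.00666). So were *Stc1* (-1.76 ± 0.685, adjusted p = 0.0432) and the receptor gene *Ghr* (-1.17 ± 0.22, adjusted p = 7.76e-05). *H19*, the imprinted non-coding RNA next to *Igf2* on chromosome 7, was at a mean of 340.2 CPM, with libraries from 119.5 to 677 CPM, against 9.76 CPM, from 1.75 to 22.96 CPM (5.83 ± 0.53, adjusted p = 1.02e-06).

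In endothelium 6 of 31 were higher and 18 lower than in stroma, beside 27.7% and 33.3% of all genes. The insulin receptor gene *Insr* was higher at 114 against 19.1 CPM (2.07 ± 0.12, adjusted p = 1.05e-15). The adaptor genes *Irs1* (-4.93 ± 0.30, adjusted p = 6.60e-12) and *Irs2* (-5.91 ± 0.50, adjusted p = 2.66e-10), which couple insulin and IGF receptors to PI3 kinase, were lower. bmEC exceeded mpEC in 6 of 31 list genes and fell below in 1, beside 9.38% and 8.62% of all genes. *Insr* was at 210.1 against 81.1 CPM (1.39 ± 0.17, adjusted p = 3.89e-07), and *Jak2* (1.67 ± 0.21, adjusted p = 4.77e-07) and *Socs3* (1.79 ± 0.29, adjusted p = 0.000301) were higher too. In SC minus mpMSC, with at least 5 cells, 1 of 31 list genes was higher and 2 lower, beside 2.96% and 3.8% of all genes.

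The genes most like each member in their 11 population means were taken among 5514 genes that mark no population. For *Igfbp2* they were *Qk* (Pearson r = 0.986), *Flt4* (0.985) and AC154328.1 (0.984), for *Igfbp4* *Trim2* (0.972), *Mpdz* (0.953) and *Tnfsf12* (0.942), and for *Igfbp6* they included *Itgbl1* (0.959) and *Lrrn4cl* (0.959). The highest values were 0.954 for *Igf1* (*Nfu1*), 0.964 for *Igfbp7* (1810037I17Rik), 0.940 for *Igfbp3* (Gm21860), 0.883 for *Igfbp5* (*C2*), 0.872 for *Igf2r* (*Atp2a2*) and 0.827 for *Igf1r* (*Apoe*). These points share libraries and depth, and the values are a description.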

How the data were processed

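The authors trimmed reads with fastp, aligned them by STARsolo to mm10 (Gencode M23, with a sequence for the H2B-GFP reporter) and deposited whole-whitelist tables of UMI counts, without cell filter or normalization. Cells with at least 1500 genes (metaphyseal) or 1000 genes (*Pdgfra-GFP*), no more than 15% of UMIs from mitochondrial and 30% from ribosomal protein genes were used, and the 25, 18 and 168 doublets called by Scrublet (scanpy 1.11.5) were kept. A marker counted as on when its UMIs exceeded the 0.99 Poisson quantile of 10% free RNA at the cell's depth, and a gate needed 3 markers, or 2 for lists of 4. For each population of 20 or more cells in a library the counts were added up and tested with edgeR 4.0.16 (TMM, library as a block, 27 sums, 14 residual degrees of freedom). The populations of a library come from 1 suspension, so they pair. Deviations from population means correlated within libraries with r of 0.109 to 0.664. CPM were scaled to the total UMIs of the sum. EC levels average 4 populations. Exact intervals (95%) cover counting error only. On simulated counts for dpMSC minus mpMSC (12390 genes), the fit found 79.8% of 183 genes changed by 4 times, with 0.0328% false calls. The simulated populations had a common expression profile apart from these genes, with independent noise and no library effect. The real sums differ in these respects, so the shares need not hold for them.

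Alternatives were DESeq2 1.42.0 as test or size factors, no count filter, no block, other fits, gates, clusters, cell filters, doublets and thinning, and leaving out each library. All 10 members were named. Pathway genes could be named where they passed the threshold with at least 2 times change, and examples of these are given. Like patterns were ranked by Pearson r, up to 3 genes a member. Members and lists were chosen with earlier results of these data known. Positions are from Gencode M21 (GRCm38). Promoters are from RefSeq, in which all 10 members matched. Protein sequences were not used here. Of the genes most like a member, 1 is not reported here.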

Additional observations from a re-analysis of the deposited data

Results flagged for a closer look

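For bmEC minus mpEC, *Igf2r* moved in opposite directions in the metaphyseal and the *Pdgfra-GFP* libraries: log2 differences of scaled CPM were -0.10 and -0.62 in metaphyseal replicates 1 and 2 and 0.11 in the *Pdgfra-GFP* library. In the fit of all libraries *Igf2r* did not pass (-0.27 ± 0.24, adjusted p = 0.507). The contrast between the metaphyseal and the *Pdgfra-GFP* libraries was not tested. In the *Pdgfra-GFP* library the value rests on 17 UMIs in bmEC (34.5 CPM, exact interval 20.1 to 55.2) and 21 in mpEC (32.8 CPM, 20.3 to 50.2), which overlap.

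In haematopoietic populations of at least 20 cells in a library, which no comparison used, the exact interval of 4 values lay wholly above the level of the near-empty barcodes. *Igf1* was at 349.6 CPM in the 50 macrophages of the *Pdgfra-GFP* library, where the near-empty barcodes held 247.5 CPM and 49.0% of thinned macrophages had a UMI. In that library *Igf1r* was at 38.5 CPM in neutrophil lineage cells and at 37.4 CPM in cells with general haematopoietic markers, against 21.9 CPM on near-empty barcodes, and *Igfbp6* was at 200.4 CPM in neutrophil lineage cells, against 152.5 CPM. In the metaphyseal libraries, where neutrophil lineage cells numbered 11 and 15, *Igf1r* was at 73.9 and 94.4 CPM, against 29.0 and 39.1 CPM on near-empty barcodes. In the 14 cells with general haematopoietic markers of metaphyseal replicate 2, *Igf1* was at 268.6 CPM, against 167 CPM.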

How the results depend on the processing

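Of 754 refits of a member's fold change under an alternative, 675 kept direction and side of the threshold, 40 lost the call, 20 gained it and 19 reversed. For the number of genes called, dpMSC minus mpMSC (4418) went to 2387 without the replicate block, to 2298 in thinned cells and to 2641 to 4416 when a library was left out. OB minus mpMSC (5588) went to 3286 without the replicate block, 3160 in thinned cells, 9155 under library size scaling (of which 8.75% were higher, against 50.8%) and 4053 to 4331 with a library left out. CHO minus mpMSC (5254) went to 3355 without the replicate block, 2684 with only the populations compared, 3026 in thinned cells and 3686 to 3911 with a library left out. EC minus stroma (8281) went to 5109 in thinned cells, and bmEC minus mpEC (2446) to 1070 without the replicate block, 1217 in thinned cells and 860 to 3422 with a library left out. SC minus mpMSC with at least 5 cells (971) went to 333 without the replicate block and 437 to 534 with a library left out. Under library size scaling the median of all genes moved to 0.13 in dpMSC, -0.39 in CHO and 0.23 in EC minus stroma, and the share of calls that were higher went from 47.9% to 58.1% in dpMSC, 53.6% to 25.3% in CHO, 45.4% to 64.4% in EC minus stroma and 43.8% to 62.3% in SC. Library size scaling and sums of at least 5 cells were added after the data were seen. The causes were not tested.

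Reversed values were all of members that did not pass, *Igf2r* in OB excepted (-0.15 under library size scaling). They were *Igf1r* in dpMSC (-0.03 without metaphyseal replicate 1, up to 0.14 with another library left out) and in CHO (-0.29 thinned, -0.09 under library size scaling), *Igfbp2* in CHO (0.59 without the *Pdgfra-GFP* library, down to -1.85 with another left out), *Igf2r* and *Igfbp4* in endothelium (0.10 and 0.18 under library size scaling), *Igfbp6* in bmEC (-0.94 with a stricter gate, -3.03 thinned, -0.88 without metaphyseal replicate 2, up to 0.48 with another left out), and *Igf1* in bmEC (0.03 with DESeq2's test, 0.02 with its size factors, 0.01 with no count filter, 0.06 without the replicate block, 0.13 without doublets, 0.17 with a stricter gate, 0.08 with clusters, 0.17 without metaphyseal replicate 2 and down to -0.14 with another left out, 0.01 with at least 5 cells). Of 60 alternative ratios of SC or FB to mpMSC, 18 left their counting interval and none reversed. Clusters gave no value for EC minus stroma, and SC and FB minus mpMSC had none in the planned fits, also with at least 10 cells. Depth limits *Igf2*. Free RNA, taken at an assumed 10% share, limits the reading of low levels in OB and CHO and of *Igfbp5* in SC. It also limits that of *Igfbp3* in bmEC of the metaphyseal libraries.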
